A study of Rattus norvegicus with 4 samples.

Results

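Macrophage identity is set by a small group of DNA-binding proteins, and the levels of 9 of their genes were read in NR8383 cells, an established line of rat alveolar macrophages grown from a lung lavage. The 9 genes were Spi1 (PU.1), Cebpa, Cebpb and Cebpd (C/EBP family), Runx1, Pparg, Maf, Klf4 and Bhlhe40. They were chosen by name as factors of the myeloid and alveolar macrophage lineage. No threshold on measured values was used, though earlier results of these data were known. Together they had 13 of the 45598 probes of the array, and they are 9 of the 16581 genes that could be named. RNA came from 4 biological replicates, labelled 1 to 4, of cells exposed for 4 h to carbon black Printex 90, an industrial soot of very small particles, at 0.9 cm2 of particle surface per cm2 of culture. The cells had been through 20 passages and were precultured for 48 h. All 4 samples carry the same exposure, and the cells incubated without particles were not analysed here, so the values are levels in exposed cells and hold no effect of the exposure. Nothing in the labels says that the replicates came from separate thaws of the line, and the spread between them may be partly technical.

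PU.1 opens chromatin across the myeloid genome and binds next to C/EBP proteins at many macrophage genes, and RUNX1 acts before it, at the enhancer of Spi1 itself. In mouse, PPARG is induced in the fetal lung by the cytokine GM-CSF and is needed for alveolar macrophages to form and to clear surfactant lipid. Also in mouse, c-Maf takes part in restraining the division of mature macrophages, and Bhlhe40 with its relative Bhlhe41 supports their self-renewal. KLF4 is known for its role in monocyte differentiation.

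A level here is the log2 of the background-subtracted spot intensity minus the 75th percentile of all probes on the same array, so that 0 is the intensity below which 75% of probes lie. Levels of different probes depend on the probe and were not set against each other. A gene was called well above background, or detected, where the scanner software marked at least 50% of the spots of 1 of its probes, and a probe without the mark has only an upper bound. No probe was saturated. The 75th percentile lay at an intensity of 109, 93.7, 63.7 and 63.8 on replicates 1 to 4, and 37.5 to 40.9% of probes were well above background. The background-subtracted negative controls reached higher on replicate 1. There 99% of the 308 lay below an intensity of 27.1, against 4.95 to 7.40 on the other arrays. All 4 arrays lay on 1 slide, so that the place on the slide and the replicate cannot be told apart. With 4 arrays, their number limits the precision of every spread given here.

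Of the 9 factor genes, 7 were detected on all 4 arrays, namely Spi1, Cebpb, Cebpd, Pparg, Runx1, Klf4 and Bhlhe40. Maf was so on 3 arrays and Cebpa on none. Among all named genes, 47.9% were detected on all 4 arrays and 44% on no array. The counts of each list below stand beside these shares, and none was tested against them. RNA was taken from whole cultures, in which fewer cells that make an mRNA and less of it per cell cannot be told apart.

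**Figure D1:**
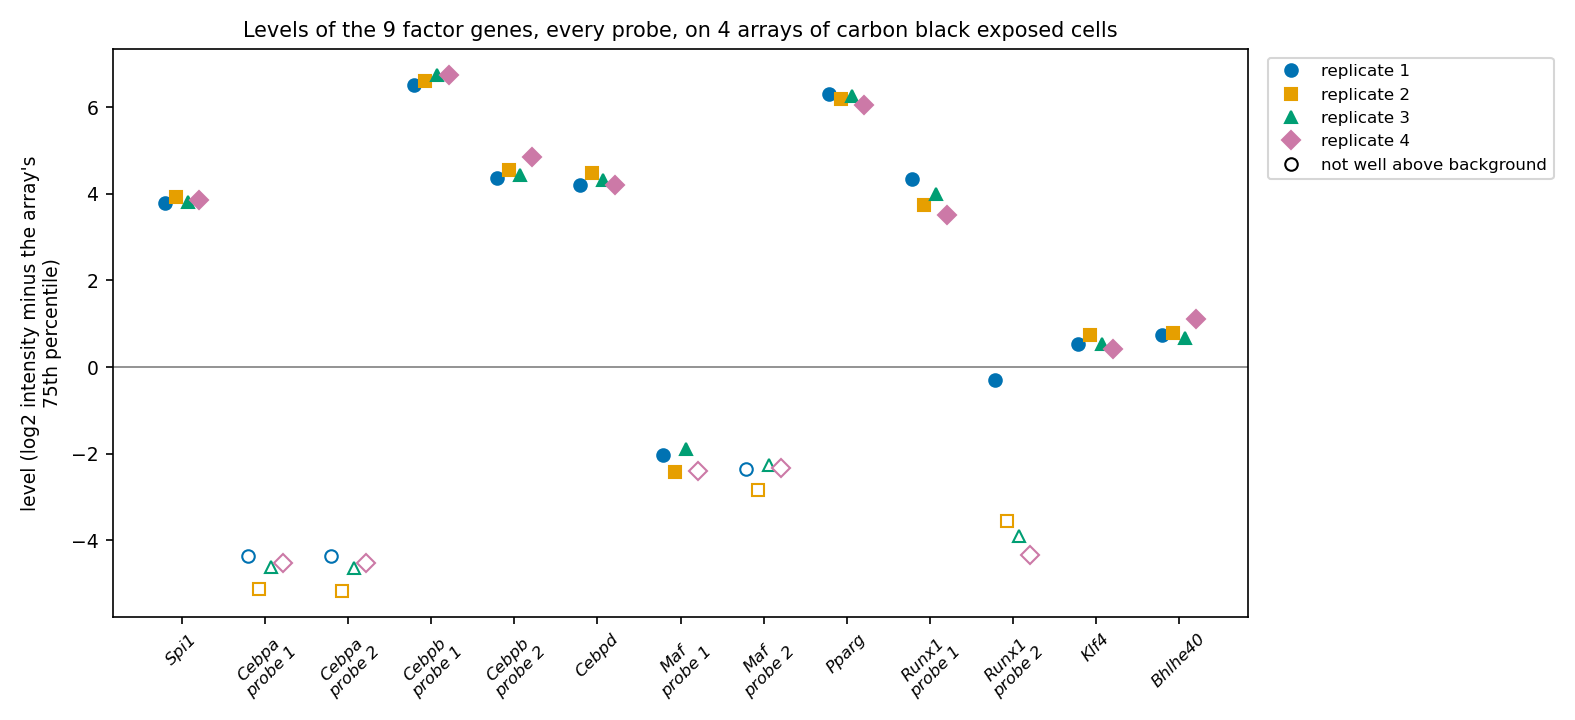
Level (log2 intensity minus the array's 75th percentile, y axis) of every probe of the 9 factor genes (x axis) on the 4 arrays. Each symbol is 1 array, and open symbols are probes not well above background there. The Cebpa probes are open on every array, and the second Runx1 probe is filled on replicate 1 alone.

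Cebpa and Cebpb are close relatives, and Cebpb was detected on every array while Cebpa was detected on none, so the sequences around their starts are shown first. C/EBP-alpha is the factor of early myeloid progenitors, and C/EBP-beta takes a large part in the inflammatory response of mature macrophages. The sequences run from 250 bases before to 50 bases after the start of transcription, are credited to RefSeq, assembly GRCr8, and lie at chr1:96896334-96896633 for Cebpa and chr3:176816755-176817054 for Cebpb, both on the plus strand. Capitals mark the motifs searched for on both strands in these windows. For C/EBP proteins the letters searched were TTGCNNAA, where N is any base, and for PU.1 they were GAGGAAG. For RUNX proteins they were TGTGGT, for E-box binders CACGTG, and for MAF proteins TGCTGA. The AP-1 letters were TGANTCA, those of the TATA box were TATAAA, and those of the GC box were GGGCGG.
Cebpa: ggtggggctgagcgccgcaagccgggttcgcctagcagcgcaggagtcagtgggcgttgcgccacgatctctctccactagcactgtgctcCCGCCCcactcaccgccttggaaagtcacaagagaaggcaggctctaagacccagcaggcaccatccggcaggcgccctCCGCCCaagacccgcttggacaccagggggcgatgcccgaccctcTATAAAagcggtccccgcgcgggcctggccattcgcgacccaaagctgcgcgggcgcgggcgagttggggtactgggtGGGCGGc
Cebpb: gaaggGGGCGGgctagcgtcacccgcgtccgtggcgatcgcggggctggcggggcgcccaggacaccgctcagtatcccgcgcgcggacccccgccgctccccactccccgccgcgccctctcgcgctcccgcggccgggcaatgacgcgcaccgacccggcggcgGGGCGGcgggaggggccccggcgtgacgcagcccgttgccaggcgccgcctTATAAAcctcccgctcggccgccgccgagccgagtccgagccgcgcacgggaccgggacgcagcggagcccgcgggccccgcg
Both windows hold a TATAAA just before the start, at -35 to -30 in Cebpa and -33 to -28 in Cebpb, counted from the first transcribed base as 1. The same letters stand in 14.2% of the 33469 promoter windows in the table, which held windows for 7 of the 9 factor genes. GC boxes, found in 33.1% of windows, lie at -159, -80 and 44 in Cebpa and at -245 and -84 in Cebpb. No C/EBP, PU.1, RUNX, E-box, MAF or AP-1 letters were found in either window, which says nothing about binding elsewhere. The share of G and C was 68.7% in Cebpa and 81.0% in Cebpb, with 28 and 56 CpG pairs, against medians of 51.7% and 7 over all windows. Both genes thus had a TATA box and more CpG pairs than the median window.

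Neither of the 2 Cebpa probes was well above background on any array. The intensity of probe A_64_P025108 was 5.31, 2.69, 2.58 and 2.77 on replicates 1 to 4, and that of probe A_44_P1088296 was 5.30, 2.59, 2.53 and 2.75. The lowest marked spots on those arrays lay at 22.3, 11.3, 10.8 and 12.1. The higher reading on replicate 1 goes with the higher negative controls and the higher lowest marked spot of that array. The local background around the Cebpa spots was 28 there and 27 to 32 on the other arrays, so it was not higher on replicate 1. The cause of the higher reading was not tested.

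Cebpb was bright on every array. Its main probe, A_64_P025118, is printed 10 times on each array, and all of its spots were marked. The levels on replicates 1 to 4 were 6.51, 6.61, 6.74 and 6.75, with a mean of 6.65 ± 0.115 (SD, n = 4). Single spots ran from 6.42 to 6.62 on replicate 1 and from 6.60 to 6.93 on replicate 4. The array means lay within 0.24 log2 units of each other. The spot ranges of replicates 1 and 4 overlapped only through the lowest spot of replicate 4. All spots of replicate 3, from 6.66 to 6.83, lay above every spot of replicate 1. The second probe, A_44_P348922, gave levels of 4.37, 4.55, 4.43 and 4.85. Both probes were lowest on replicate 1 and highest on replicate 4.

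Cebpd, an acute-phase factor that is induced by inflammatory signals, was read by 1 probe in 2 spots. Its levels were 4.22, 4.49, 4.33 and 4.22, a mean of 4.31 ± 0.129 (SD, n = 4). Replicate 2 was highest, and replicates 1 and 4 were alike to 2 decimals.

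All 6 measured relatives of the C/EBP genes were detected on all 4 arrays, namely Cebpe, Cebpg, Cebpz, Ddit3, Tef and Dbp. Cebpe, known for the late maturation of granulocytes, had levels of 2.92, 3.07, 2.91 and 2.91. Cebpg, a partner with no activation domain of its own, had 3.68, 4.20, 4.16 and 4.14, with replicate 1 lowest. Ddit3 (CHOP), a stress-induced member, had a mean of 4.34 ± 0.209 (SD, n = 4). Of the C/EBP genes measured, Cebpa alone was detected on no array.

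Of 14 measured genes known as C/EBP targets, 9 (64.3%) were detected on all 4 arrays, against 47.9% of all named genes. They included Lcn2, the iron-trapping lipocalin, at 6.58 ± 0.139, and Il1b at 4.13 ± 0.120 (SD, n = 4 each). Chi3l1 was marked on 1 array. Il6, Ptgs2, Csf3r and Elane were marked on none. Il6 and Ptgs2 are inflammatory genes, while Csf3r and Elane belong to the granulocyte branch.

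Spi1 had the smallest spread of the 8 factor genes that could be tested, except without replicate 4, where Bhlhe40 had the smallest, and with normexp background correction, where Cebpb had. Its single probe, in 1 spot per array, gave levels of 3.78, 3.92, 3.80 and 3.86, a mean of 3.84 ± 0.063 (SD, n = 4). The unscaled intensities were 1503, 1421, 889 and 926, higher on the arrays with the higher 75th percentile. The levels lay within 0.14 log2 units of each other.

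Of the 11 measured relatives and partners of PU.1, 7 were detected on all 4 arrays, among them Irf4, Ets2 at 3.94 ± 0.228 and Elf1 at -0.02 ± 0.080 (SD, n = 4 each). Elf4 was marked on 2 arrays. Spib, Ets1 and Irf8 were marked on none. Spib and Irf8 are the close relative and a myeloid partner of PU.1, and Ets1 is best known in lymphocytes.

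Of 18 known PU.1 target genes, 17 (94.4%) were detected on all arrays and Csf3r, the G-CSF receptor, on none. The share of all named genes detected on all arrays was 47.9%. The receptor of M-CSF, Csf1r, read 2.63, 2.81, 2.82 and 3.02. The 2 chains of the GM-CSF receptor read 4.15 ± 0.135 for Csf2ra and -1.23 ± 0.116 for Csf2rb (SD, n = 4 each). None of the 17 differed between replicates by more than the variance test allows. This list overlaps with the markers of macrophages below and is not separate evidence of cell type.

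Pparg gave levels of 6.30, 6.19, 6.27 and 6.05, a mean of 6.20 ± 0.111 (SD, n = 4), from 1 probe in 1 spot. Its intensity ran from 8595 on replicate 1 to 4229 on replicate 4. Once scaled, the arrays differed by a ratio of at most 1.19.

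RefSeq gives 2 start sites to Pparg. The second is shown because its window holds letters of other factors described here, and it lies at chr4:150154522-150154821 (GRCr8, plus strand), with the searched motifs in capitals.
Pparg second start: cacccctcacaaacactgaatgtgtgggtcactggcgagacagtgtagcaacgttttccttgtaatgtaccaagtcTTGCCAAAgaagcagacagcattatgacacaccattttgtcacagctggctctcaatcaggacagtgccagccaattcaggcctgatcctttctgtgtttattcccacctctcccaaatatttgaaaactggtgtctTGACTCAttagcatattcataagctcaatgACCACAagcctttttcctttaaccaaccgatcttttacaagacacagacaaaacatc
It holds a C/EBP match, TTGCCAAA, at -174 to -167, an AP-1 match at -37 to -31, and a RUNX match on the minus strand at -7 to -2. These letters occur in 10.6%, 7.33% and 17.3% of all windows. The first start, at chr4:150096808-150097107, held 3 GC boxes, of which those at -208 and -204 overlap, a TATAAA at 29 on the minus strand, and none of those 3 motifs. The windows also differed in composition, with 64.7% G and C and 14 CpG pairs at the first start and 43.7% and 3 at the second. The probe does not tell which start was used.

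Of 12 measured relatives and cofactors of PPARG, 9 were detected on all 4 arrays. They included Rxra and Rxrb, whose proteins pair with PPARG on DNA. Rxra read -0.78 ± 0.191 and Rxrb 2.26 ± 0.039, and Ppard read -1.90 ± 0.147 (SD, n = 4 each). Ppara, Rxrg and the coactivator Ppargc1a were marked on no array.

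Of 13 known PPARG target genes, 10 (76.9%) were detected on all arrays, against 47.9% of all named genes. Cd36, a scavenger receptor for oxidised lipid, read 6.94 ± 0.116 (SD, n = 4), and Fabp5, a fatty acid carrier, read 8.02, 8.38, 8.28 and 8.15. Fabp4, a carrier often used as a marker of alveolar macrophages, read 2.80 ± 0.228, and the lipase Lpl 3.96 ± 0.083 (SD, n = 4 each). Acot1 was marked on 1 array, and Pdk4 and Car4 on none.

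Runx1 stood apart from the other factor genes in its spread. Its main probe, A_44_P228942, printed 10 times, gave levels of 4.34, 3.74, 3.99 and 3.52 on replicates 1 to 4, a mean of 3.90 ± 0.353 (SD, n = 4). Replicate 1 was 1.77 times replicate 4, and all 10 of its spots lay above every spot of the other arrays. Spots ran from 4.22 to 4.46 on replicate 1, from 3.50 to 3.93 on replicate 2, from 3.88 to 4.05 on replicate 3 and from 2.47 to 3.75 on replicate 4. The lowest spot on replicate 4 had an intensity of 353 where the highest had 858. The median of the spots there was 3.62 in place of the mean of 3.52, so that replicate 4 stayed lowest either way.

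**Figure D2:**
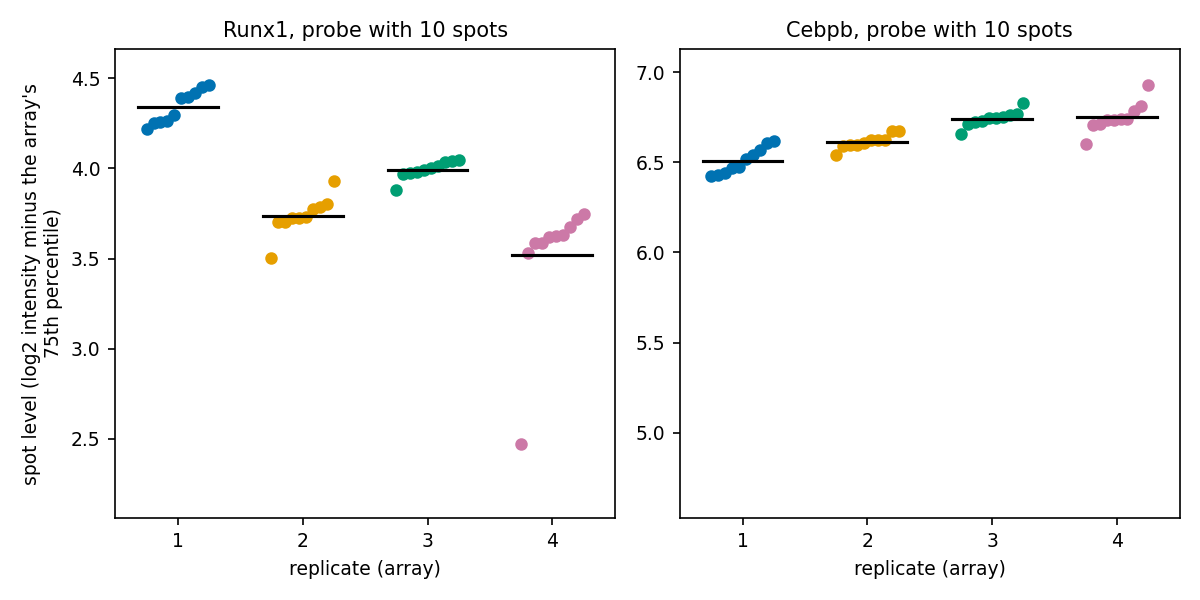
Level of each of the 10 spots (points, log2 intensity minus the array's 75th percentile, ordered by value within an array) and their mean (bars) on the 4 arrays, for the main probes of Runx1 and Cebpb, both panels spanning the same number of log2 units. The Runx1 spots of replicate 1, from 4.22 to 4.46, lie above all others, while the Cebpb arrays lie within 0.24 of each other.

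In the test of spread, the variance of Runx1 was 6.92 times the limma prior for a gene of its level. It did not pass the one-sided F test, with a limma adjusted p of 0.633 over all 14916 genes tested. Among the 1020 probes with 10 spots that were detected on all arrays, 0.588% had a spread between arrays at least as large as that of Runx1 and 54.2% one at least as large as that of Cebpb. Among all tested genes, many with 1 spot and lower levels, 12.1% had a range at least as large.

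The second Runx1 probe, A_44_P700588, which the array ties to a predicted transcript, was marked on replicate 1 alone. Its intensity there was 88.3, against 7.96, 4.27 and 3.14 on replicates 2 to 4. Like the main probe it was highest on replicate 1 and lowest on replicate 4. The local background around its spot was 47 on replicate 1 and 29 to 31 on the others, and the part of this in the reading was not tested.

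Of 7 measured RUNX relatives and partners, 4 (57.1%) were detected on all arrays, against 47.9% of all named genes. Cbfb, the subunit that stabilises RUNX proteins on DNA, read 0.29, -0.14, -0.12 and -0.24. It was highest on replicate 1 and lowest on replicate 4, as were Runx1 and Pparg. Its spread did not pass the variance test (limma adjusted p = 0.987), and 4 arrays are too few to read a shared pattern. Runx2, the bone factor, read -0.11, 0.15, 0.01 and 0.19, in another order. Runx3 was marked on 1 array, Cbfa2t2 on 2 and Runx1t1 on none. The RefSeq window of Runx1, at chr11:45421276-45421575 on the minus strand, was 34.3% G and C with 6 CpG pairs and held none of the letters searched.

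Maf was close to the limit of detection. Its brighter probe, A_42_P648606, gave levels of -2.03, -2.42, -1.89 and -2.41, a mean of -2.19 ± 0.268 (SD, n = 4), and was marked on replicates 1 to 3. On replicate 4 the intensity was 12.0, where the lowest marked spot of the array had 12.1. On replicate 1 it was 26.7, marked but below the 27.1 under which 99% of the negative controls lay. The other probe, A_44_P400324, had intensities between 12.7 and 21.1 and was marked on no array, although it was 1.15, 1.23 and 1.05 times the lowest marked spot on replicates 2 to 4. Both probes read highest on replicate 3 and lowest on replicate 2, at intensities close to that limit. The RefSeq window of Maf, at chr19:60621307-60621606 on the minus strand, was 73.3% G and C and held GC boxes at -20 and 6.

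Of 7 measured MAF relatives and partners, 6 were detected on all arrays and Bach2, a repressor that acts in lymphocytes, on none. The small MAF gene Mafg, whose protein pairs with NRF2, read 3.29, 4.32, 4.22 and 4.47. Replicate 1 was lowest there, and the adjusted p over all genes was 0.198. Maff and Mafk read -0.39 ± 0.266 and -1.07 ± 0.527 (SD, n = 4 each).

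Of 8 known MAF target genes, 2 were detected on all 4 arrays, Apoe and the mannose receptor Mrc1. Il10 and Cd163 were marked on 1 array each. The complement genes C1qa, C1qb and C1qc, along with F13a1, were marked on none. That share, 25%, lay below the 47.9% of all named genes and was not tested.

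Klf4 read 0.53, 0.74, 0.54 and 0.42 from 1 probe in 2 spots, a mean of 0.56 ± 0.130 (SD, n = 4). The intensities were 158, 156, 92.6 and 85.5, all marked. Of 9 measured KLF relatives, 6 were detected on all arrays, among them Klf6 at 4.10 ± 0.233 and Klf3 at 0.68 ± 0.104 (SD, n = 4 each). Klf2, known in resting endothelium and lymphocytes, was marked on replicate 1 alone, with levels of -0.01, -4.64, -4.78 and -3.26. Klf5 and Klf13 were marked on none. The RefSeq window of Klf4, at chr5:75078543-75078842 on the minus strand, held 2 TGCTGA matches, at -211 and -161, as 18.4% of windows hold at least 1. It also held TATAAA at -146 and at -78, both on the strand opposite to the gene.

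Bhlhe40, a repressor that binds E-boxes, read 0.73, 0.79, 0.68 and 1.10, a mean of 0.83 ± 0.190 (SD, n = 4). Replicate 4 was highest, and the other arrays lay between 0.68 and 0.79. Its window is printed because it holds the letters its own protein class binds, CACGTG, at -220 to -215 (chr4:143174200-143174499, GRCr8, plus strand).
Bhlhe40: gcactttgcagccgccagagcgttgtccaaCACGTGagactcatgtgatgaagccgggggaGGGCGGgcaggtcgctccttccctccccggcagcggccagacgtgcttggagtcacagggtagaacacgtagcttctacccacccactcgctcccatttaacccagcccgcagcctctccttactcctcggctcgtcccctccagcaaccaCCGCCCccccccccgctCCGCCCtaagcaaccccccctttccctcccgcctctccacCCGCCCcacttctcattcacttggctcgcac
An E-box of this form stands in 6.42% of all windows. GC boxes lie at -189, -38, -21 and 20, and 65.7% of the window was G or C. A match of letters is a description and does not show binding.

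Of 12 measured genes listed with the E-box factors, 11 were detected on all arrays and Id3 on none. Mitf, which drives osteoclasts, mast cells and pigment cells, read 3.15, 4.96, 5.05 and 4.89. It was the single listed gene whose spread passed the variance test (adjusted p = 0.0237, limma prior), with replicate 1 below the others. That call was lost under 6 of 12 other settings, among them leaving out replicate 1 (adjusted p = 0.993) and averaging its probes (adjusted p = 0.526). Its relatives Tfec, Tfe3 and Tfeb, tested in the same way, read 2.70 ± 0.089, 4.58 ± 0.108 and 1.83 ± 0.067 (SD, n = 4 each).

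Across all genes, 70 of the 14916 tested (0.469%) varied between replicates past an adjusted p of 0.05, and 755 (5.06%) had an unadjusted p below 0.05. The 14916 include transcripts without a gene name. Among the 8483 named genes in them, 8 passed the same test and 238 had an unadjusted p below 0.05. Of the 8 factor genes tested, 0 passed by limma's adjusted p, and 1, Runx1, had an unadjusted p below 0.05. Without replicate 1, or with a prior without trend, 0 of the 8 had one. The other 7 had adjusted p-values from 0.987 to 0.991. The median SD of the 8 was 0.129, against 0.161 over all tested genes and 0.147 over the named ones. These medians span all levels and are not matched to the levels of the 8. Tested genes in the dimmest bin of level had a median SD of 0.485, and those in the brightest bin 0.120. Apart from Runx1, each factor gene lay inside the middle 90% of tested genes at its level.

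**Figure D3:**
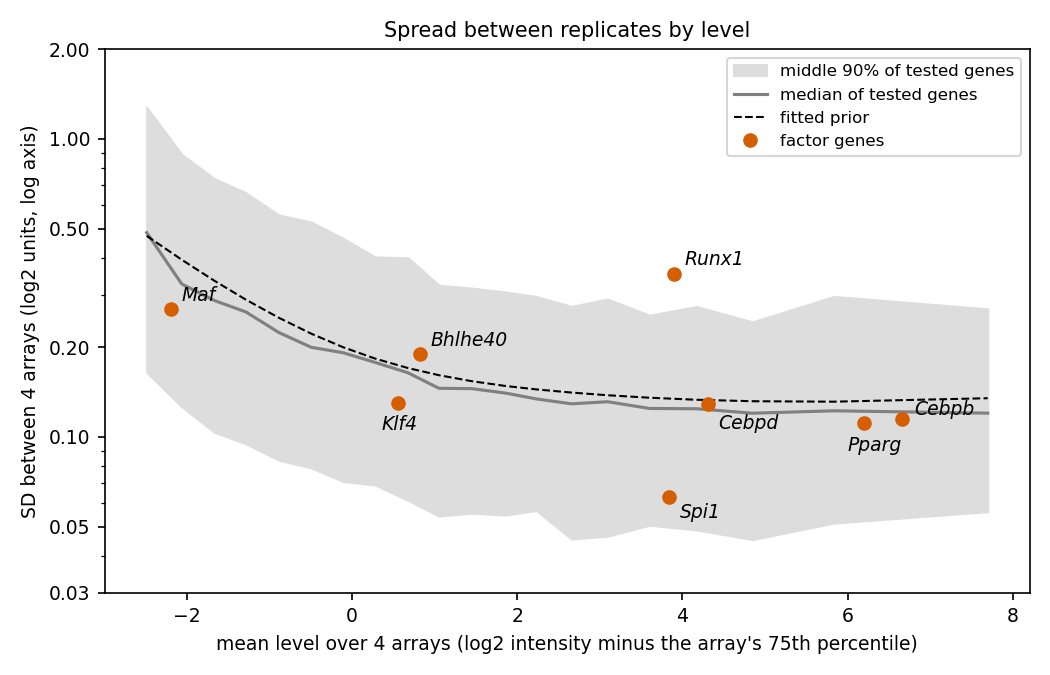
SD between the 4 arrays (log2 units, log axis) against mean level for the 8 tested factor genes (orange points), with the median and the middle 90% of all tested genes in bins of level (grey) and the fitted prior (dashed). Runx1, at an SD of 0.353, lies above the grey band, and Spi1, at 0.063, near its lower edge.

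Factors of other lineages were counted in the same way. Of 8 measured factors linked with macrophages of other tissues, 5 were detected on all arrays, among them Zeb2 at 3.55 ± 0.183 and Nr4a1 at -0.91 ± 0.073 (SD, n = 4 each). Gata6 of the peritoneal macrophage, Sall1 of microglia and Smad3 were marked on none. Of 10 measured mesenchymal and endothelial factors, 0 were marked on any array. Of 11 epithelial factors, 3 were marked on all arrays (Foxj1, Sox9 and Tp63), 4 on some (Sox2, Foxa1, Elf5 and Hopx, 1 array each) and 4 on none. Of 6 erythroid, megakaryocyte and mast cell factors, 2 were marked on all arrays (Klf1 and Zfpm1), 2 on some (Gata2 on 3, Nfe2 on 1) and 2, Gata1 and Tal1, on none. Of the 2 granulocyte factors, Cebpe was marked on all arrays and Gfi1 on none.

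Some lymphoid factors were detected as well. Of 9 measured, 4 were detected on all arrays, namely Pax5, Ebf1, Tbx21 and Ikzf1, and 5 on none. That share, 44.4%, was close to the 47.9% of all named genes and was not tested. Tbx21 (T-bet), a factor of T and NK cells, read 6.11, 5.25, 5.19 and 5.36. Pax5 and Ebf1, which direct B cells, read 1.09 ± 0.346 and -0.04 ± 0.217 (SD, n = 4 each). Each name rests on the accession the array gives to the probe. The B-cell marker Cd79b was marked on no array.

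**Figure D4:**
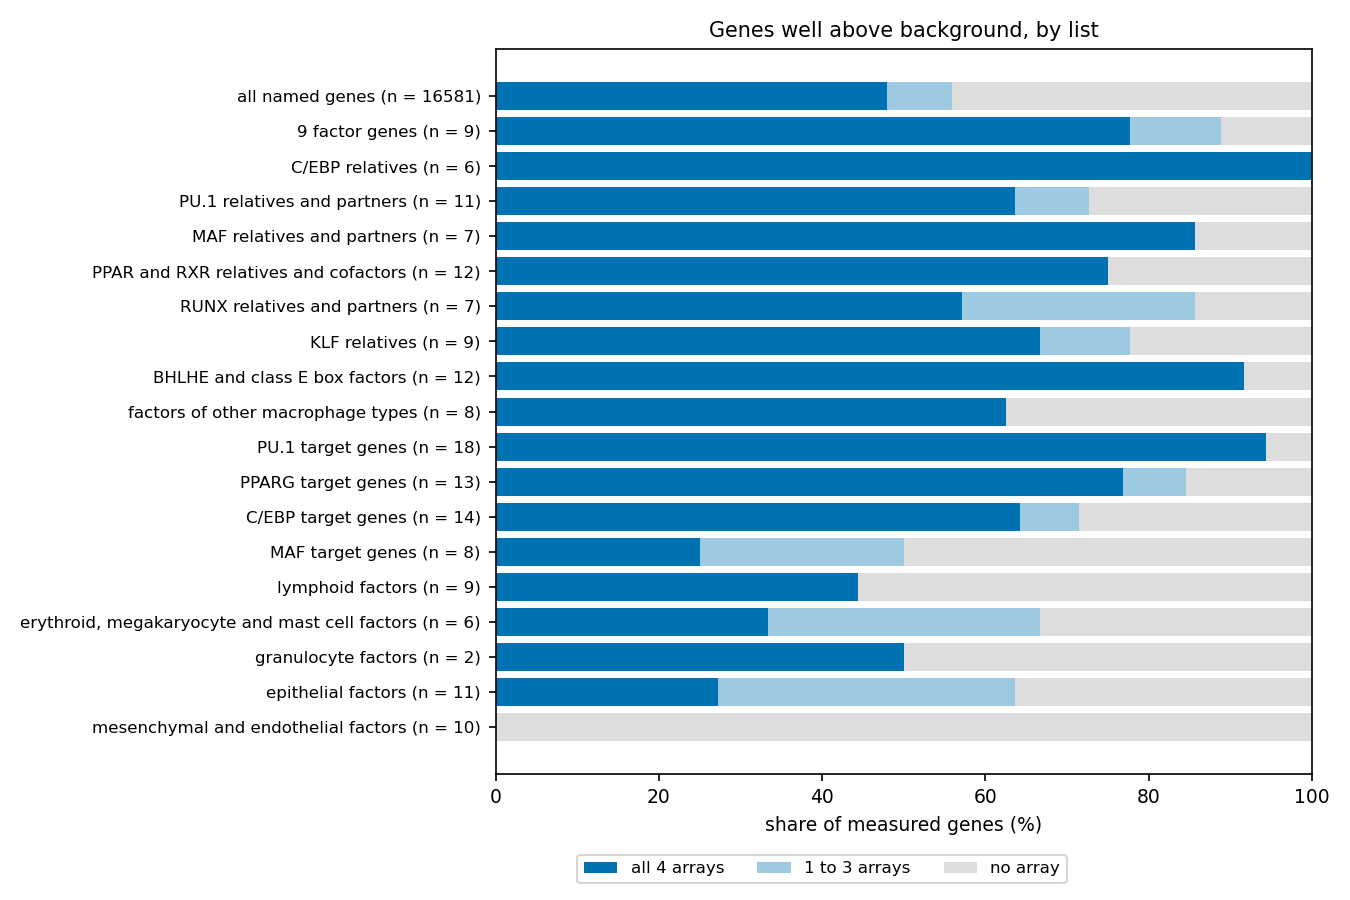
Share of the measured genes of each list (%, x axis) that were detected on all 4 arrays (dark), on 1 to 3 arrays (light) or on no array (grey), with the number of measured genes beside each list. The 9 factor genes reached 77.8% on all arrays and all named genes 47.9%, while the mesenchymal and endothelial list is grey throughout.

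The label of the cells was checked against markers. Of 13 measured macrophage markers, 11 were detected on all arrays, while Marco and Adgre1 were on none. Of 10 alveolar epithelial markers, 0 were marked on all arrays and 1, Sftpd, on 1 array. The same count was 2 of 6 for T and NK cells, 0 of 2 for B cells, 1 of 6 for granulocytes and mast cells, 1 of 6 for fibroblasts and 2 of 6 for endothelium. Those detected were Cd3d and Nkg7, then Camp, Dcn, and Pecam1 with Vwf. S100a8 of granulocytes and Cdh5 of endothelium were marked on 2 arrays each.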

How the data were processed

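Cy3-labelled RNA of the 4 replicates, 100 ng each with an integrity number above 7.5, was read on Agilent rat arrays in 1 colour, per the labels' protocols. The deposited files hold spot intensity from Agilent Feature Extraction 11.0.1.1 (version per the submitters' processing notes). Background subtraction and detrending had been done array by array, per the file headers. The slope of the spike-in series, 0.869 to 0.887, was outside the range the software accepts on all 4 arrays.

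Control spots and spots marked non-uniform (0 to 7 per array) were left out. Each probe's level is the mean log2 intensity of its spots minus the 75th percentile of all probes on that array. Accessions without versions were matched to RefSeq genes (GRCr8, names only), which named 21109 probes (46.3%). For a gene with several probes, the brightest was used. Pearson correlations between arrays, across genes that are not independent, were 0.981 to 0.993.

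Genes, and transcripts without a gene name, marked on at least 2 arrays were tested for spread with limma 3.58.1 in R 4.3.3. Each gene's variance was set against the squeezeVar prior with a trend (prior degrees of freedom 6.51) by a one-sided F test, and p-values were adjusted over all tested genes (Benjamini-Hochberg). The text names every factor gene, list members past the test or marked on some arrays, small groups behind a count, and values for the first 4 measured members of a list, of which some are not reported here. Irf4, named in the same paragraph as Irf8, fell outside that rule. The factor genes and lists were chosen with earlier results of these data known. The files hold no mean signal column, so the normexp alternative used the median signal. The alternatives covered scaling, background, probes, spots, filter, prior, detection and left-out replicates.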

Additional observations from a re-analysis of the deposited data

Results flagged for a closer look

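The factor gene probes and list genes detected on all 4 arrays were examined for a single array that stood off, by the gap between the highest or lowest array and the next one as a share of the whole range, with a limit of 82.9%. Chance alone passes that limit in about 1 of 20 groups. Of the 8 factor gene probes examined, 0 passed, and the highest share was 74.6%. Of 107 other genes of the lists and marker lists, 7 passed, a share close to that chance rate. In Cebpe the gap was 93.9% of the range, with replicate 2 above the other arrays and an SD of 0.075. In Cebpg it was 88.4%, in Mitf 91.6% and in Klf16, a relative of Klf4, 95%, each with replicate 1 lowest. In Gabpa, an ETS partner, it was 93.1% with replicate 2 lowest. In the lipid receptor gene Olr1 it was 84.8% and in the macrophage marker Siglec5 87.1%, both with replicate 4 highest. Gabpa, Klf16, Olr1 and Siglec5 were named here after their values were seen. Replicate 1 was the array with the higher negative controls, and the part of the arrays in these gaps was not tested.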

How the results depend on the processing

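The number of genes past the variance test, 70, depended on the processing. It was 0 with the percentile taken over detected probes (721 at an unadjusted p below 0.05), 1 with quantile normalization, 0 with a prior without trend (897 unadjusted), 207 with a robust prior and 357 with no filter on dim genes. It was 236 with normexp and 69 with the median of spots, both chosen after seeing the data, and 58 with the mean of probes. Leaving out 1 replicate gave 27 (without replicate 2) to 161 (without replicate 3), with 89 and 43 without replicates 1 and 4. The cause was not tested. In all of these settings 0 factor genes passed. The adjusted p of Runx1 ran from 0.0677 (mean of probes) to 0.993 (without replicate 1). Its unadjusted p was 0.058 without replicate 1 and 0.131 with a prior without trend (limma). The adjusted p of Mitf, 0.0237, was 0.104 with the percentile over detected probes, 0.0948 with quantile normalization, 0.526 with the mean of probes, 0.538 without trend, and 0.993 and 0.0665 without replicates 1 and 2. The adjusted p of the other 7 factor genes was 0.9326 or more. The count of 7 factor genes well above background on all arrays became 6 when all probes of a gene had to be marked, which removed Runx1, and 8 without replicate 4, which added Maf. The median SD of the 8 tested factor genes lay between 0.116 and 0.164. The median shift in level over all tested genes was -3.52 with the percentile over detected probes and -0.41 with normexp. Under the other scalings it was less than 0.01. Single factor genes moved by other amounts. With normexp the mean level of Cebpa went from -4.66 to -1.17, that of Maf from -2.19 to -0.86 and that of Pparg from 6.20 to 5.25. With the mean of probes, Runx1 went from 3.90 to 0.44 and Cebpb from 6.65 to 5.60. Maf and Cebpa lay at or below the limit of detection, where signal over background sets what can be read. The slide as a block was not run, as there was 1 slide. No paired analysis was possible because the labels give 1 group.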
